A study of Mus musculus with 15 samples.

Results

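The genes described here are the receptors that bind corticosteroid hormones, the proteins that set how much hormone reaches them, and a group of genes that the glucocorticoid receptor is known to induce. They were chosen by gene symbol, and all 9 were present among the 26145 genes of the deposited count tables: Nr3c1, Nr3c2, Hsd11b1, Crhr1, Fkbp5, Sgk1, Tsc22d3, Zbtb16 and Cdkn1a. The rule itself uses no measured value, although earlier results of these data were known when it was set.

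Single-cell RNA-seq was carried out on the prefrontal cortex (PFC) of mice in 15 droplet libraries, each made from the pooled tissue of 2 mice. The adult mice (P60, 8-10 weeks in the labels) were male C57BL/6N mice that had intravenous self-administration of saline or of cocaine, and they were collected during maintenance, after 48 h of withdrawal or after 15 days of withdrawal, with 2 libraries in each of the 6 groups. The young mice (P21, 3 weeks) had no self-administration and gave 3 libraries, so the P60 saline mice differ from them in more than age. By the methods, the mice of both ages were male. A label field gives the nucleus accumbens as the tissue, while the sample titles and source names give PFC, and the methods give 4 young mice where 3 libraries of 2 mice each are listed, so P21 libraries may share mice.

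Corticosterone, the main glucocorticoid of mice, crosses into the brain and binds 2 nuclear receptors: the mineralocorticoid receptor (Nr3c2), which has the higher affinity, and the glucocorticoid receptor (Nr3c1), which is filled as hormone levels rise with the daily rhythm or with stress. The bound receptor leaves its chaperones, enters the nucleus and binds glucocorticoid response elements, which are paired inverted 6-base motifs near its target genes. The PFC is one of the regions in which this signal is read, and the hormone axis matures over the weeks between weaning and adulthood.

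Start-site windows are shown for 2 of the target genes, Sgk1 and Tsc22d3, because the mRNA of both was lower at P60 than at P21 in excitatory neurons and because of the members that could be read they alone held the motif. The RefSeq windows (GRCm38.p6) ran from 250 bases before to 50 bases after an annotated start, and 15 windows of 7 members could be read, with none for Nr3c1 and Zbtb16. The 6-base motif AGAACA, searched on both strands (TGTTCT on the other), was found in 4 of the 15 windows, all of these 2 members, and 19.0% of all 32851 promoter windows hold it. These 2 members had more windows than any of the others, which gives more places for a match. Other windows of both lacked the motif. The paired form, AGAACA followed after 3 bases by TGTTCT, was found in 3 promoter windows of the genome (0.00913%), and a window of Sgk1 is one of these, with the element 189 bases before the start. The windows are given 5′ to 3′ in the direction of transcription, with every match in capitals, at chr10:21993640-21993939 (+ strand) for Sgk1 and chrX:140600473-140600772 (− strand) for Tsc22d3.
Sgk1: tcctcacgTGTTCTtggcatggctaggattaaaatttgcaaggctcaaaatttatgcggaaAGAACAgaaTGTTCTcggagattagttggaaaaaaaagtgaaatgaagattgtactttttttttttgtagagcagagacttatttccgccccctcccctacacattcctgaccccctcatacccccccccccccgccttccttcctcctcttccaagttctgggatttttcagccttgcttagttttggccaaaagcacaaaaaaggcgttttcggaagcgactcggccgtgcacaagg
Tsc22d3: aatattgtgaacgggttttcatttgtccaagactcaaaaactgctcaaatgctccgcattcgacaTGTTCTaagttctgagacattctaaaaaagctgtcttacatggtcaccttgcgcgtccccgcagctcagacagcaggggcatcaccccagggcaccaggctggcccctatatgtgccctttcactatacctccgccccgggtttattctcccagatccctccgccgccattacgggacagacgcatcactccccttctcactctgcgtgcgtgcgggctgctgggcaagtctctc

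A match is a description of letters and not a measured binding site. In the genome build used for the counts (mm9), all 9 members are protein-coding genes. The receptors Nr3c1 and Nr3c2 lie at chr18:39570199-39650955 (− strand) and chr8:79423341-79768911 (+ strand). Hsd11b1 lies at chr1:195047824-195090248 (− strand) and Crhr1 at chr11:103994169-104036837 (+ strand). Of the target genes, Fkbp5 lies at chr17:28536040-28654469 (− strand), Cdkn1a at chr17:29227924-29237667 (+ strand), Sgk1 at chr10:21601990-21719709 (+ strand), Tsc22d3 at chrX:137074067-137135198 (− strand) and Zbtb16 at chr9:48462416-48644050 (− strand). The 3′ end of Hsd11b1 is overlapped on the opposite strand by 4930570N18Rik and 1600010F14Rik, and the strand setting of the counting is not given in the sources used here, so their reads could not be told apart from those of Hsd11b1.

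The count tables hold 31791 P60 and 12004 P21 barcodes, of which the deposited metadata retain 24822 and 10538 as cells, with 8375172 to 42892922 UMIs (unique molecular identifiers, each standing for 1 captured mRNA) per library and a median of 3426 to 11334 UMIs per cell. Levels are in CPM, the UMIs of a gene in 1 type and library scaled to 1000000 UMIs of that type and library, and they are compared between types and groups, never between genes. The deposited L2 clusters belong to 8 types: excitatory and inhibitory neurons, astrocytes, oligodendrocyte precursors (OPC), newly formed oligodendrocytes (NF Oligo), oligodendrocytes, microglia and endothelial cells. Their markers fell where the names put them (Gad1 at 1621 CPM in inhibitory and 1.10 CPM in excitatory neurons at P60), except that the endothelial class also carries markers of mural cells, the pericytes and smooth muscle of vessels, whose summed level was 4954 to 7159 CPM in its P60 saline libraries. No endothelial cluster was tested between ages, and the part of mural cells or of cluster make-up in the endothelial results between ages was not tested. No pair of libraries shared more than 27 barcodes among the retained cells, or 40 among all deposited barcodes. P21 libraries 2 and 3 were closer to each other than any other pair of one group (chi-square per degree of freedom 3.68 in excitatory neurons, against 6.60 to 17.0 for the P60 pairs and 40.2 to 45.9 for pairs with P21 library 1), so the P21 group may hold fewer than 3 independent samples. P-values measure the spread between these libraries, part of which may be technical. With P21 libraries 2 and 3 summed as 1 sample (chosen after seeing the data), 9 of the members' tests between ages were called instead of 12.

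Levels are given as mean ± SD over the 12 P60 libraries (11 for astrocytes, OPC and NF Oligo). Neighbours in the order of types are called apart where the mean paired difference exceeded its SD. No test was made, because the types were clustered on the same cells.

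Nr3c1 was measured in every type. Its level was highest in endothelial cells, at 175 ± 25.6 CPM (lowest library 112, median 174, highest 217), and it was above OPC (123 ± 21 CPM) in 11 of 11 libraries. Below these, OPC, astrocytes (96.8 ± 16.1), oligodendrocytes (93.1 ± 17.2), excitatory neurons (87.4 ± 8.43) and microglia (86.2 ± 16.1) formed a run in which no neighbour was apart from the next. Inhibitory neurons followed at 47.5 ± 16.7 CPM, below microglia in 11 of 12 libraries, and were not apart from NF Oligo at 44.8 ± 25.2 CPM. A Nr3c1 UMI was seen in 61.3% of excitatory and 48.6% of endothelial cells, but after thinning each cell to 2000 UMIs the shares were 16.0% and 27.4%, against 7.44% in NF Oligo (20.8% before thinning), so the order of excitatory and endothelial cells turned once depth was equal (median 12456 and 3870 UMIs per cell as counted).

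Nr3c2 had another order. It was highest in inhibitory neurons (27.6 ± 11.2 CPM; lowest library 12.5, median 24.2, highest 52.0), apart from endothelial cells at 9.79 ± 3.47 CPM. Excitatory neurons had 4.95 ± 0.993 CPM, and 9 of the 12 microglial libraries had no Nr3c2 UMI. The 2 receptors were thus highest in different types, with the glucocorticoid receptor lower in inhibitory than in excitatory neurons and the mineralocorticoid receptor higher.

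Hsd11b1 codes for 11β-hydroxysteroid dehydrogenase type 1, the enzyme that regenerates active corticosterone inside cells. Its mRNA was concentrated in astrocytes, at 246 ± 70.6 CPM (lowest library 172, median 244, highest 407), and the astrocyte libraries did not overlap with those of inhibitory neurons, the next type (16.9 ± 13.8 CPM, highest 52.6). The remaining 6 types averaged between 1.81 CPM (endothelial cells) and 5.93 CPM (OPC). A UMI of Hsd11b1 was seen in 49.8% of astrocytes (34.6% thinned) and in 0.870% of endothelial cells (0.394% thinned), the type taken as background, at median depths of 3211 and 3870 UMIs.

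Crhr1, the receptor of corticotropin-releasing hormone (CRH), the peptide that starts the hormone axis, was highest in excitatory neurons at 15.2 ± 3.51 CPM (10.6, 14.9 and 23.0 for the lowest, median and highest library). They were above inhibitory neurons (3.85 ± 5.55 CPM) in 11 of 12 libraries. All other types averaged 3.31 CPM or less, with at least 6 libraries each at 0 in astrocytes, OPC, NF Oligo, oligodendrocytes, microglia and endothelial cells. It was seen in 18.3% of excitatory neurons (3.36% thinned) and 0.561% of endothelial cells (0.169% thinned).

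The 5 target genes differed from each other in where they were high. Fkbp5, the co-chaperone that lowers the affinity of the receptor and is itself induced by it, was low throughout: microglia led at 22.5 ± 10.9 CPM, ahead of inhibitory neurons at 15.0 ± 7.62 CPM, and no neighbouring types were apart. Sgk1, a serine/threonine kinase that regulates ion channels and transporters, was highest in microglia at 1039 ± 257 CPM (lowest library 663, highest 1493). NF Oligo (497 ± 116 CPM) and oligodendrocytes (420 ± 293 CPM) came next and were not apart, while excitatory neurons had 29.0 ± 3.15 CPM and astrocytes 6.61 ± 8.73 CPM. Tsc22d3, known as the glucocorticoid-induced leucine zipper, was highest in endothelial cells (826 ± 83.2 CPM) and astrocytes (753 ± 252 CPM), which were not apart, and it was at 52.0 ± 6.09 CPM in excitatory neurons.

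Zbtb16, a zinc-finger transcription factor, was highest in inhibitory neurons at 139 ± 29.5 CPM (105 to 205), and these libraries lay above all of those of excitatory neurons (46.3 ± 6.61 CPM, 34.9 to 53.6). Microglia had 4.92 ± 4.83 CPM, with 4 of 12 libraries at 0. Thinned to 2000 UMIs, 23.0% of inhibitory neurons and 0.377% of microglia held a Zbtb16 UMI (53.4% and 0.898% before thinning). Cdkn1a, an inhibitor of cyclin-dependent kinases that halts the cell cycle, was highest in endothelial cells (527 ± 122 CPM, 371 to 730), followed by microglia (212 ± 53.2 CPM) and excitatory neurons (132 ± 15.0 CPM, 112 to 155), each apart from the next.

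**Figure D1:**
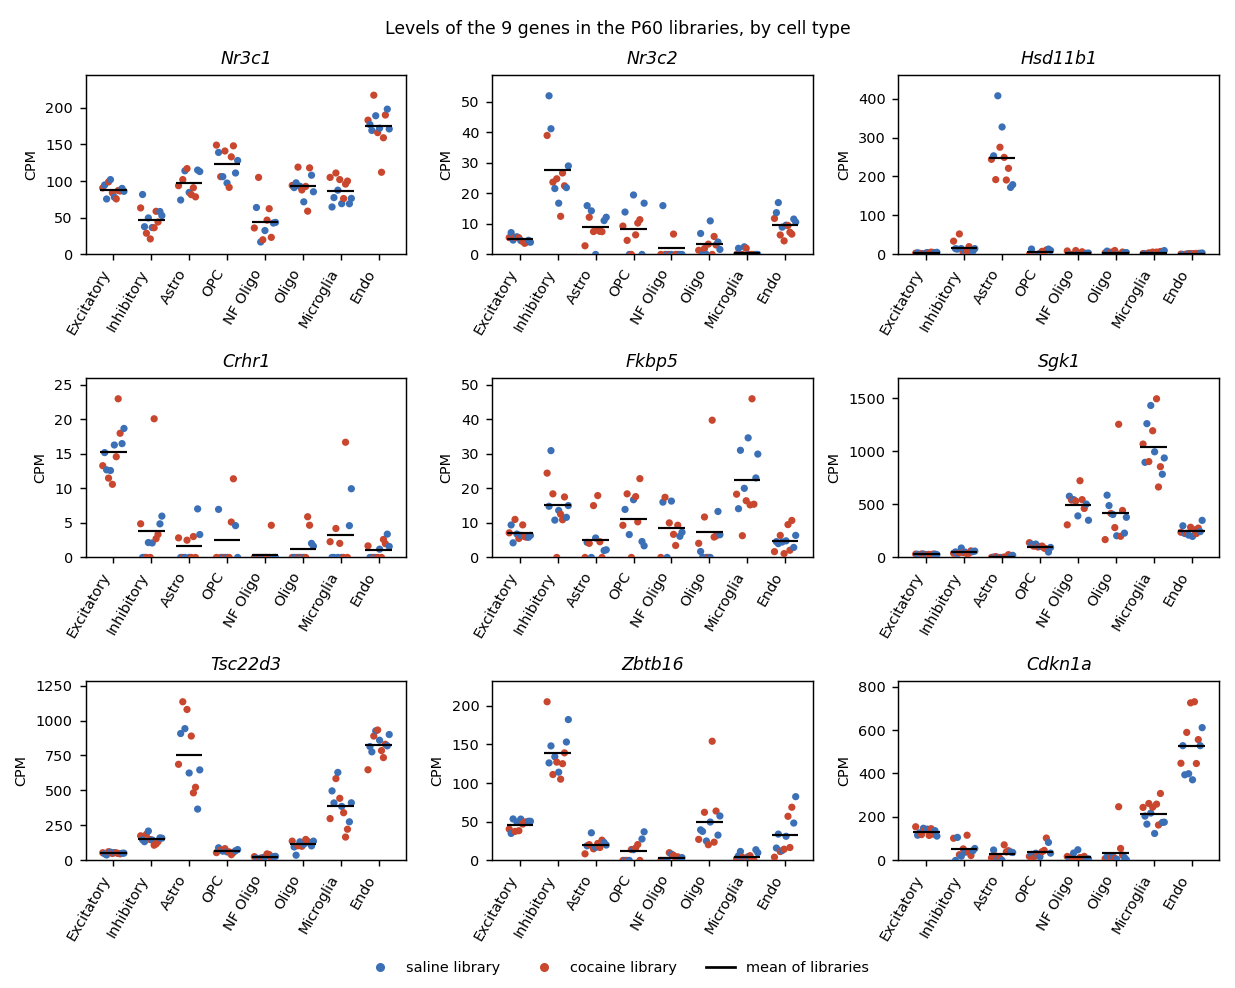
Level of each of the 9 genes (CPM, linear axes that start at 0) in the 8 cell types at P60, with 1 point per library and lines for the means. Hsd11b1 stands out in astrocytes (172 to 407 CPM), Nr3c2 and Zbtb16 in inhibitory neurons, Crhr1 in excitatory neurons, and Sgk1 in microglia.

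Within types, the L2 clusters were compared by pooling their P60 cells, in the 82 clusters with at least 50 cells, with exact Poisson 95% intervals that cover counting error only. Nr3c1 ranged from 24.8 CPM in Inhib_10 to 222 CPM in Endo_8, and from 45.3 CPM (Exc_16) to 160 CPM (Exc_24) among the excitatory clusters. Nr3c2 was highest in Inhib_10, at 47.3 CPM. Among excitatory clusters it was highest in Exc_26, at 22.2 CPM (80 UMIs, 17.6 to 27.7), and lowest in Exc_7, at 0.807 CPM.

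Hsd11b1 was above 100 CPM only in the astrocyte clusters, from 139 CPM (Astro_1) to 266 CPM (Astro_4). Astro_1 also held more neuronal mRNA (Snap25 at 1132 CPM, against 205 CPM in Astro_4), whose part in this range was not tested. It was also present in Inhib_10, at 74.3 CPM (51.2 to 104), and in Exc_23, at 27.5 CPM (24.1 to 31.3), while Inhib_2 had 1.92 CPM and Exc_19 had 0.297 CPM. Exc_23 was the cluster with the highest Crhr1 as well, at 41.9 CPM (37.6 to 46.5), against 0.514 CPM in Exc_20, and 17 of the 82 clusters reached 10 CPM of Crhr1. Inhib_3 had the highest Crhr1 of the inhibitory clusters, at 19.7 CPM.

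Of the target genes, Cdkn1a varied the most within excitatory neurons, from 10.3 CPM in Exc_4 (8.30 to 12.7) to 260 CPM in Exc_24 (248 to 272), and Exc_24 was the excitatory cluster with the highest Nr3c1. Zbtb16 went from 12.2 CPM (Exc_3) to 88.2 CPM (Exc_17) in excitatory clusters and from 26.9 CPM (Inhib_2) to 243 CPM (Inhib_10; 200 to 294) in inhibitory ones. Among the 7 inhibitory clusters with at least 50 P60 cells, Inhib_10 was thus highest for Nr3c2, Hsd11b1 and Zbtb16. It was also the lowest of all 82 clusters for Nr3c1. Smaller inhibitory clusters were not ranked. Inhib_10 held 62 P60 cells, and its place below other clusters low in Nr3c1 was not tested. Sgk1 ranged from 10.7 CPM (Exc_22) to 69.9 CPM (Exc_19) and Tsc22d3 from 27.6 CPM (Exc_2) to 88.2 CPM (Exc_21) among excitatory clusters. Fkbp5 ranged from 3.03 to 17.0 CPM there, with the highest value in Exc_26, where Nr3c2 was also highest.

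**Figure D2:**
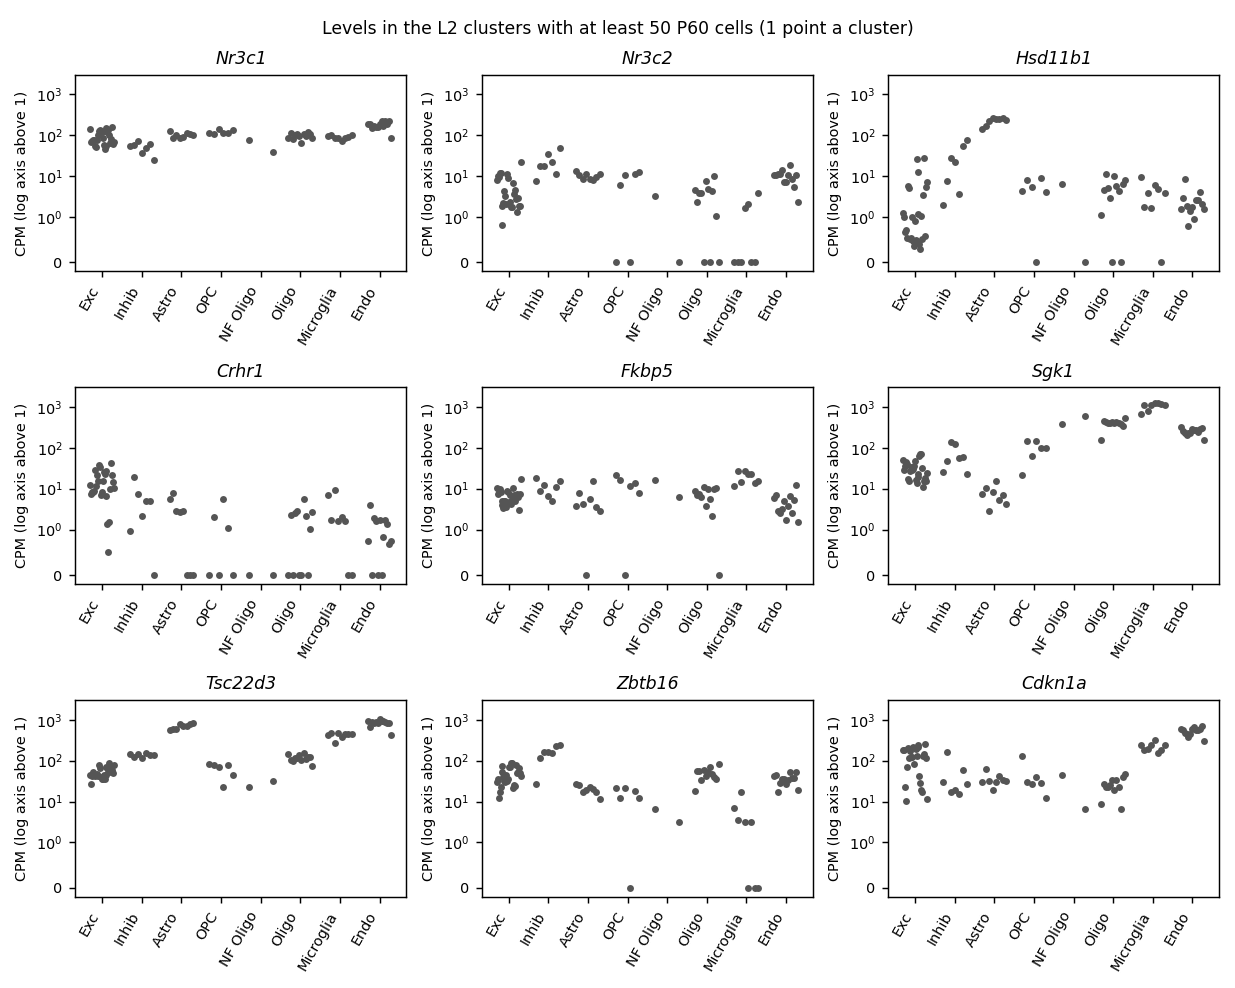
Level of each gene in every L2 cluster with at least 50 P60 cells, 1 point per cluster, grouped by cell type, in CPM (linear up to 1, log above). Exc_4 (10.3 CPM) and Exc_24 (260 CPM) mark the ends of Cdkn1a in excitatory neurons, and Hsd11b1 lies above 100 CPM in astrocyte clusters alone.

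Across the same 82 clusters, the genes most like each member were sought by Pearson's r of log2(CPM + 1), as a description, since clusters of one type share libraries, depth and cell type. Nr3c1 was most like Sp1 (r = 0.71) and Ctnnd1 (0.70), and Nr3c2 most like A330023F24Rik (0.62) and Leng8 (0.61). Hsd11b1 was most like Ugp2 (0.83) and Gjb6 (0.82), the latter an astrocyte connexin, and Crhr1 most like Krt12 (0.84) and Grm2 (0.81). For the target genes the pairs were Lman2l (0.65) and Rnf19b (0.59) for Fkbp5, Eef1a1 (0.87) and its near-identical copy Gm10136 (0.86), whose reads are hard to separate, for Sgk1, Fcgrt (0.91) and Gatsl3 (0.91) for Tsc22d3, Aes (0.78) and Sepw1 (0.75) for Zbtb16, and Pdgfb (0.84) and Ly6e (0.82) for Cdkn1a. The highest r between any pair of the 9 members was 0.45 (Nr3c1 and Tsc22d3).

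The comparison of P21 with P60 asks how expression in the PFC changed over adolescence. UMIs were summed per library and type, and the 3 P21 libraries were compared with the P60 saline libraries (6, or 5 for astrocytes and NF Oligo) by edgeR's quasi-likelihood test. A gene was called where the Benjamini-Hochberg adjusted P over all genes was below 0.05 and the change above 1.5-fold. Of 38 tests of members in 7 types, 12 were called (11.9% of all tests in these types), 6 higher and 6 lower at P60: Zbtb16 rose in excitatory and inhibitory neurons and oligodendrocytes, Sgk1 rose in oligodendrocytes and fell in endothelial cells and excitatory neurons, Tsc22d3 fell in excitatory neurons and oligodendrocytes, and Cdkn1a fell in endothelial cells and microglia. Nr3c2 in endothelial cells and Hsd11b1 in inhibitory neurons rose. Nr3c1 was called in none of the 7 types, Fkbp5 in neither excitatory nor inhibitory neurons and Crhr1 not in excitatory neurons, the types in which each could be tested.

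Calls were common among all genes in several types, so the members' counts are read beside the background. In excitatory neurons 3 of 9 members were called (19.3% of all genes tested), in inhibitory neurons 2 of 8 (14.0%), in oligodendrocytes 3 of 4 (17.8%) and in endothelial cells 3 of 6 (12.7%). In microglia it was 1 of 4 (0.726%). In astrocytes 0 of 4 (1.11%) and in NF Oligo 0 of 3 (1.94%) were called by edgeR, with 0 at an unadjusted P below 0.05 and 0 called by DESeq2 in both. DESeq2 gave no adjusted P for 1 of the 4 in astrocytes and 2 of the 3 in NF Oligo, which it therefore could not call. OPC had too few P21 cells (41) to test. No library holds both ages, so age and library batch cannot be told apart.

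The glucocorticoid receptor itself did not pass the test in any type. In excitatory neurons Nr3c1 was at 78.1 to 95.6 CPM in the P21 libraries and 75.6 to 102 CPM in the P60 saline libraries, which overlapped (log2 change 0.07, SE 0.10, adjusted P = 0.587). The other types had changes from −0.37 in astrocytes (SE 0.24, adjusted P = 0.681) to 0.19 in NF Oligo (SE 0.33, adjusted P = 0.863). In endothelial cells the CPM did not overlap (151 to 167 at P21, 169 to 198 at P60), but after TMM scaling of the libraries the log2 change was 0.04 (SE 0.10, adjusted P = 0.815).

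Nr3c2 in endothelial cells was at 4.24, 2.52 and 3.65 CPM in P21 libraries 1, 2 and 3, from 14, 6 and 9 UMIs. In the P60 saline libraries it was at 8.94 CPM at the lowest, 11.1 at the median and 17.0 at the highest. The groups did not overlap, and the log2 change was 1.57 (SE 0.32, adjusted P = 0.00317). In inhibitory neurons, where it was highest, the value was 0.73 (SE 0.27, adjusted P = 0.0626), and in excitatory neurons 0.54 (SE 0.21, adjusted P = 0.0549), neither of which passed. With equal numbers of cells per library the endothelial call was lost (log2 change 1.12, adjusted P = 0.125).

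Hsd11b1 in astrocytes spread widely in both groups (105 to 303 CPM at P21, 172 to 407 CPM at P60) and did not pass (0.35, SE 0.45, adjusted P = 0.807). In inhibitory neurons it was at 5.98, 5.59 and 5.54 CPM at P21, from 15, 10 and 11 UMIs, and at 8.40 to 15.1 CPM at P60 (median 14.2). The groups did not overlap (log2 change 0.98, SE 0.34, adjusted P = 0.0492), but the call was lost in 11 of 18 alternatives, DESeq2 included (adjusted P = 0.103). Inhib_2, with little Hsd11b1, was 35.4% of inhibitory cells at P21 and 7.82% in P60 saline mice. Inhib_10, which had the most among the inhibitory clusters with at least 50 P60 cells, was 3.33% and 5.51%. The part of this in the result was not tested. Crhr1 in excitatory neurons was at 11.8 to 23.3 CPM at P21 and 12.6 to 18.7 CPM at P60, a log2 change of 0.02 (SE 0.21, adjusted P = 0.955).

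Zbtb16 was called in 3 types, each time as a rise. In excitatory neurons it was at 27.2, 15.1 and 18.0 CPM in the P21 libraries and at 34.9 to 53.6 CPM (median 50.6) in the P60 saline libraries, all of them higher (log2 change 1.34, SE 0.19, adjusted P = 0.000268). In inhibitory neurons the P21 libraries had 74.1, 40.8 and 29.7 CPM and the P60 libraries 114 to 182 CPM (median 141), again without overlap (1.55, SE 0.24, adjusted P = 0.000858). In oligodendrocytes it was at 6.00, 4.98 and 9.32 CPM at P21, from 12, 2 and 4 UMIs, and at 25.1 to 57.5 CPM (median 38.5) at P60 (2.51, SE 0.37, adjusted P = 0.000116). The log2 change in endothelial cells was 1.82 (SE 0.61), which edgeR did not call (adjusted P = 0.0817) and DESeq2 did (1.79, adjusted P = 0.00354). Inhibitory neurons also differed in make-up between the ages: Inhib_2, with little Zbtb16, was 35.4% of inhibitory cells at P21 and 7.82% in P60 saline mice, and Inhib_7 was 7.90% and 35.7%. Within Inhib_7 and Inhib_9 the log2 changes were 0.48 and 0.81 and were not called.

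Sgk1 was also called in 3 types, in both directions. In oligodendrocytes it was at 104, 89.6 and 140 CPM at P21 and at 204 to 586 CPM (median 391) at P60, without overlap (log2 change 1.71, SE 0.35, adjusted P = 0.00727). In endothelial cells it was at 419, 409 and 400 CPM at P21 and at 198 to 349 CPM (median 234) at P60 (−0.83, SE 0.15, adjusted P = 0.00184). In excitatory neurons the P21 libraries had 43.8, 51.4 and 43.6 CPM and the P60 libraries 26.8 to 32.5 CPM (−0.60, SE 0.09, adjusted P = 0.00034). The last change was just past the limit, at 1.51-fold, and fell under it in 4 of 19 alternatives. In microglia, where Sgk1 was highest, the groups overlapped (788 to 1496 CPM and 783 to 1430 CPM). Among oligodendrocyte clusters at P60, Sgk1 ranged from 154 CPM (Oligo_1) to 526 CPM (Oligo_13). Zbtb16 ranged from 17.7 to 82.3 CPM over the same clusters, and Tsc22d3 was lowest in Oligo_13 (74.3 CPM). No oligodendrocyte cluster was tested between ages, and the part of cluster make-up in the oligodendrocyte calls was not tested.

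Tsc22d3 in excitatory neurons was at 75.7, 87.8 and 87.7 CPM at P21 and at 39.3 to 59.1 CPM (median 51.5) at P60, all lower (−0.65, SE 0.11, adjusted P = 0.000545). In oligodendrocytes it was at 168, 224 and 207 CPM at P21 and at 37.5 to 138 CPM (median 110) at P60 (−0.93, SE 0.21, adjusted P = 0.00431). Inhibitory neurons had a log2 change of −0.51 (SE 0.15, adjusted P = 0.0257), under the 1.5-fold limit. In endothelial cells and astrocytes, the types with most Tsc22d3, the groups overlapped, with log2 changes of −0.18 and 0.18.

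Cdkn1a in endothelial cells was at 878, 943 and 864 CPM at P21 and at 371 to 611 CPM (median 464) at P60 (−1.07, SE 0.14, adjusted P = 0.00012). In microglia it was at 344, 641 and 512 CPM in the P21 libraries, which held 149, 21 and 12 microglia, and at 124 to 218 CPM at P60 (−1.27, SE 0.25, adjusted P = 0.0272), a call that was lost in 8 of 17 alternatives. Excitatory neurons did not pass (−0.27, SE 0.11, adjusted P = 0.0569). Fkbp5 was at 4.67 to 5.58 CPM in excitatory neurons at P21 and 4.23 to 9.40 CPM at P60 (0.39, SE 0.18, adjusted P = 0.102).

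**Figure D3:**
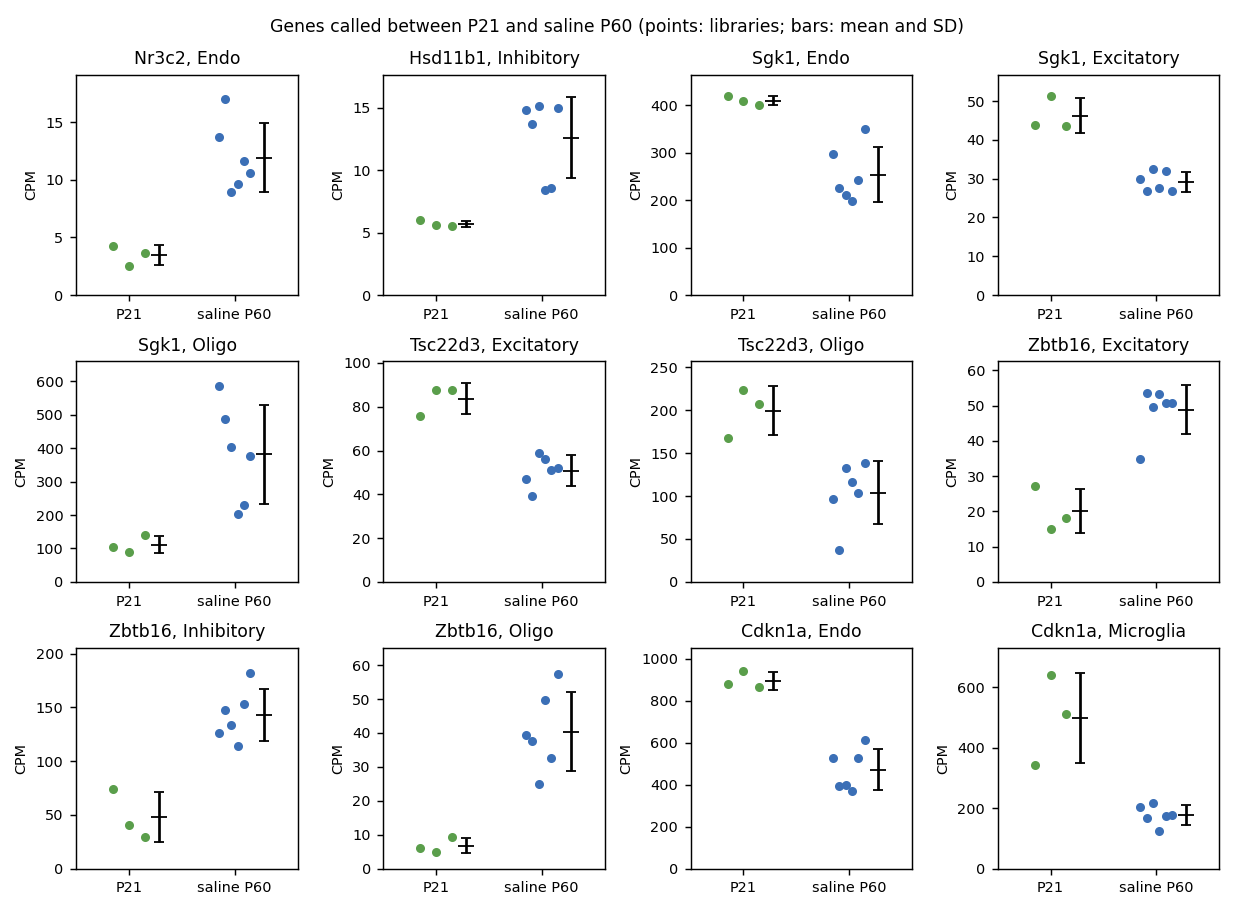
Level (CPM) of the 12 gene and cell type pairs called between ages, 1 point per library with the mean and SD, for the 3 P21 and the 6 P60 saline libraries. In each panel the libraries of the 2 ages do not overlap.

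Other measures moved with age in the same cells. Excitatory cells sat in other clusters: Exc_20 was 8.34% of them at P21 and 1.40% in P60 saline mice, Exc_9 8.56% and 2.91%, Exc_18 6.34% and 1.85%, and Exc_10 1.57% and 6.78%. Summed oligodendrocyte markers in excitatory neurons were 258 to 525 CPM at P21 and 45.9 to 125 CPM at P60, and summed immediate early genes (Fos, Jun, Egr1 and others) were 887 to 1011 CPM at P21 and 359 to 554 CPM at P60. At P21, 4.65% of the cells in excitatory clusters had another deposited class, against 0.0692% at P60. In astrocytes they were 2444 to 7053 CPM at P21 and 484 to 1745 CPM at P60, with Ier2 (−3.60) and Jun (−1.93) called. In oligodendrocytes their sum overlapped (2704 to 2963 and 1528 to 4031 CPM), while Ier2 (154-333 to 17.2-57.5 CPM, log2 change −3.10) and Junb (214-417 to 32.7-149 CPM, −2.27) fell. In NF Oligo Fos and Fosb rose (2.12 each). The sum also overlapped in endothelial cells (12492 to 17209 and 10430 to 17186 CPM). In microglia they were 12298 to 19584 CPM at P21 and 7941 to 13618 CPM at P60. The part of these in the results was not tested, apart from a repeat on the cells whose class and cluster name the same type (chosen after seeing the data), in which the members' calls were kept except that of Sgk1 in excitatory neurons (−0.52), and Nr3c2 in excitatory neurons was called as well (0.68, adjusted P = 0.0216).

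In the 26 excitatory L2 clusters the same test gave 39 calls of members. Zbtb16 rose in 18 of the 23 clusters in which it could be tested (4.54% of all gene and cluster tests were called as rises), with a median log2 change of 1.19 and the largest in Exc_4 (1.73, adjusted P = 0.0165). It was above 0 in 22 of 23, and Exc_1 had −0.12. Cdkn1a fell in 10 of 25 clusters (6.73% of all tests were called as falls), most in Exc_4 (−2.0, adjusted P = 0.000356), although excitatory neurons as a whole did not pass. Exc_5 had the highest change of Cdkn1a, 0.33, which was not called.

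Tsc22d3 fell in 6 of 26 clusters, most in Exc_20 (−1.22, adjusted P = 0.00526), and was below 0 in all 26 (median −0.56). Sgk1 fell in 3 of 22, namely Exc_14 (−1.30, adjusted P = 0.000388), Exc_13 (−0.80) and Exc_25 (−0.64), with 20 of 22 below 0. Hsd11b1 could be tested in 2 clusters. It fell in Exc_23 (−1.26, adjusted P = 0.000688), the excitatory cluster in which it was highest, and was not called in Exc_15 (−0.12). Crhr1 fell in Exc_17 (−0.96, adjusted P = 0.0353) and was below 0 in all 11 clusters tested (median −0.39), while its value over all excitatory neurons was 0.02. Nr3c1 was called in 0 of 26, with changes from −0.50 (Exc_3) to 0.46 (Exc_23). The clusters share libraries and are not independent of each other. Of the inhibitory clusters 3 could be tested, where 1.65% of all tests were called and none of the members.

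**Figure D4:**
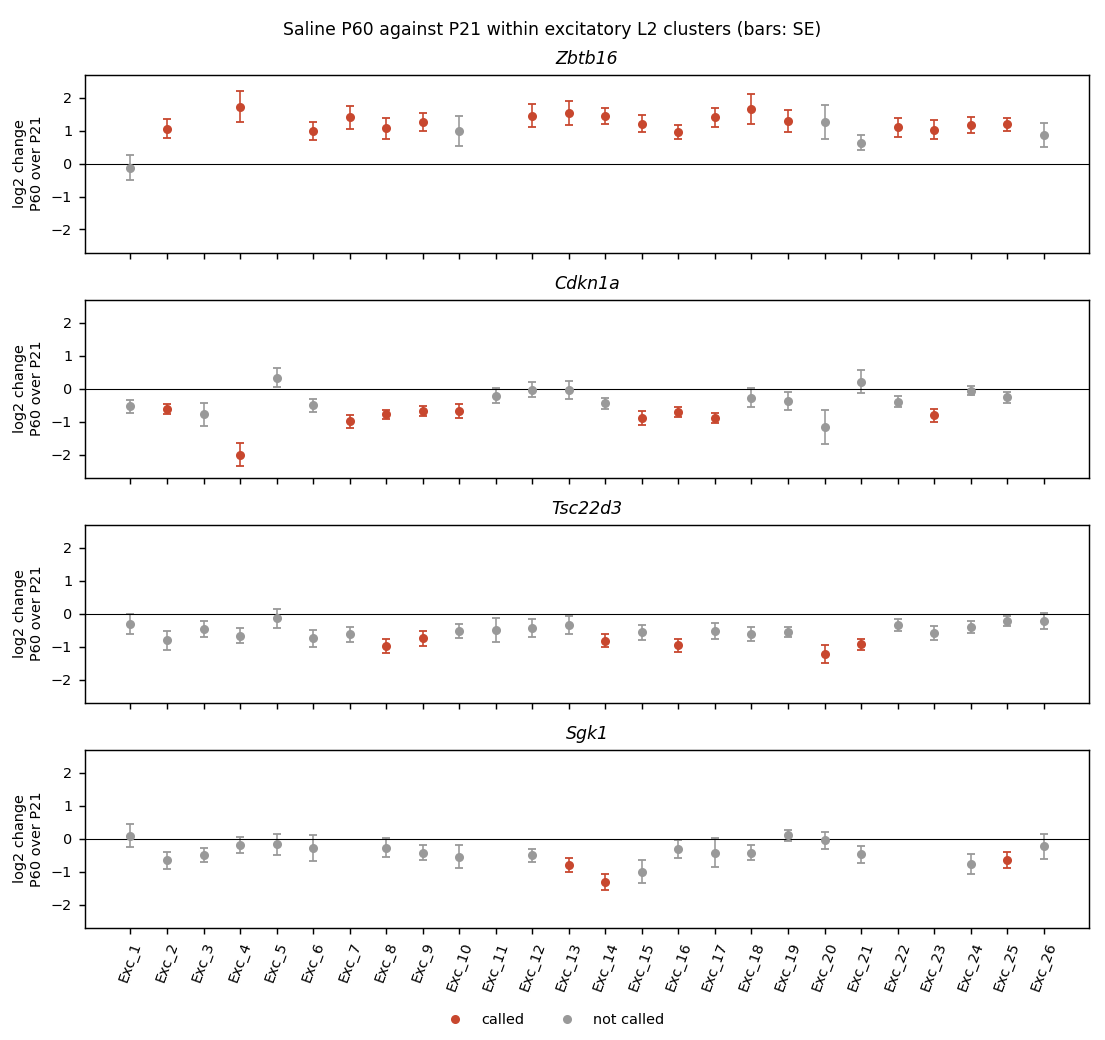
Log2 change from P21 to P60 (± SE, edgeR) of Zbtb16, Cdkn1a, Tsc22d3 and Sgk1 in the excitatory L2 clusters, with called clusters in red. Zbtb16 lies above 0 in all but Exc_1, and Tsc22d3 below 0 in all 26 clusters.

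Other genes known as glucocorticoid targets (17 of 18 listed were in the files) did not share 1 direction. In excitatory neurons 1 of 13 rose and 3 fell (19.3% of all genes were called), with a median log2 change of −0.41 (0.00 over all genes). Dusp1, a phosphatase of MAP kinases, fell from 39.1-49.7 to 13.9-25.1 CPM (−1.18, SE 0.15, adjusted P = 8.97e-05), and Bcl6 (−1.04) and Nfkbia, the inhibitor of NF-κB, (−0.64) fell, while Rasd1 rose (0.80). The fall of Nfkbia was −0.29 and not called in the cells whose class and cluster agree in type.

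In endothelial cells 4 of 14 rose and 2 fell (12.7% of all genes were called), with a median of 0.57 (0.01 over all genes). The metallothionein Mt2 rose from 37.8-109 to 212-347 CPM (2.05, SE 0.37, adjusted P = 0.00625) and the small GTPase Rasd1 from 54.7-77.8 to 199-300 CPM (1.87, SE 0.17, adjusted P = 3.41e-06). Mt1 rose (1.15) and Errfi1 fell (−1.04). In astrocytes 0 of 10 rose and 2 fell (1.11% of all genes were called; median −0.26, 0.02 over all genes), Nfkbia from 403-533 to 126-196 CPM (−1.58, SE 0.21, adjusted P = 0.00203) and Dusp1 (−1.41, adjusted P = 0.0434). In oligodendrocytes 1 of 8 rose and 1 fell (17.8% of all genes were called; median −0.05, 0.02 over all genes), namely Mt1 (0.98) and Nfkbia (−0.60, adjusted P = 0.0481). The fall of Nfkbia in oligodendrocytes turned to 0.13 in the cells whose class and cluster agree and was lost in 11 more of 19 alternatives, DESeq2 included. That in astrocytes was −1.09 and not called in the same cells (adjusted P = 0.0875), and that of Errfi1 in endothelial cells was lost with equal numbers of cells (−1.20, adjusted P = 0.0514). The calls of Mt1 in endothelial cells and Dusp1 in astrocytes were lost in 9 of 19, of Mt1 in oligodendrocytes in 7 and of Rasd1 in excitatory neurons in 6. By edgeR none of 10 was called in inhibitory neurons, of 7 in microglia or of 6 in NF Oligo (1, 0 and 0 by DESeq2), with 2, 1 and 1 at an unadjusted P below 0.05 and medians of 0.01, 0.24 and 0.15. DESeq2 gave no adjusted P for 1 of the 6 in NF Oligo.

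Of the 11 chaperones, coregulators and steroid enzymes, Ptges3, the p23 co-chaperone of the receptor complex, fell in 4 types. It went from 201-218 to 95.9-153 CPM in excitatory neurons (−0.81, SE 0.12, adjusted P = 0.000204) and from 228-275 to 111-175 CPM in inhibitory neurons (−0.83, adjusted P = 0.000442), and it also fell in oligodendrocytes (−0.79) and astrocytes (−1.21, adjusted P = 0.0464). Stip1, which links Hsp70 to Hsp90, rose in excitatory neurons from 93.4-153 to 180-218 CPM (0.87, adjusted P = 0.000558) and in oligodendrocytes (0.88). Hsp90aa1 rose in oligodendrocytes (0.60, adjusted P = 0.0256) and NF Oligo (0.76, adjusted P = 0.0277). The astrocyte call of Ptges3 was lost in 9 of 19 alternatives, and those of Hsp90aa1 in oligodendrocytes and NF Oligo in 9 and 7 of 19. In all, 8 of 60 tests of this list were called, beside 11.9% of all tests over the 7 types, and its median log2 change lay between −0.12 (NF Oligo) and 0.12 (astrocytes).

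Of the CRH system, 2 of 4 tests were called by edgeR and 3 by DESeq2, which added Crhbp in excitatory neurons (−1.80, adjusted P = 0.0338), beside 19.3% of all genes called in excitatory and 14.0% in inhibitory neurons. Crh fell in inhibitory neurons, from 84.5, 47.5 and 30.7 CPM at P21 to 7.99-29.7 CPM at P60 (−1.99, SE 0.38, adjusted P = 0.00467), and the call was lost with all 12 P60 libraries (−1.22, adjusted P = 0.0726). Pooled Crh was 512 CPM at P21 and 145 CPM at P60 (saline and cocaine cells together) in Inhib_9, 200 and 104 CPM in Inhib_4, 147 and 18.3 CPM in Inhib_11, 68.4 and 30.5 CPM in Inhib_5, and 57.6 and 35.5 CPM in Inhib_2. Of these clusters, Inhib_9 was 6.55% of inhibitory cells at P21 and 13.0% in P60 saline mice, Inhib_4 4.68% and 6.22%, Inhib_11 3.85% and 3.02%, Inhib_5 2.7% and 5.86%, and Inhib_2 35.4% and 7.82%, and the part of make-up in the result was not tested. Ucn, the CRH relative urocortin, was at 3.61 to 4.13 CPM at P21 and 0 to 1.42 CPM at P60 in excitatory neurons (−2.39, SE 0.40, adjusted P = 0.000642).

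Cocaine was compared with saline within each time point, in 1 fit per type over the 12 P60 libraries. Astrocytes, OPC and NF Oligo had 11 libraries and were not compared at maintenance. A single test was called among the members: Cdkn1a was higher in endothelial cells after 48 h of withdrawal. At 48 h 1 of 46 tests was called (0.00827% of all tests in all types, 0.0199% in endothelial cells), at maintenance 0 of 34 (0.0115%) and after 15 days 0 of 46 (0.339%). The numbers at an unadjusted P below 0.05 were 6, 4 and 1, and DESeq2 called 1, 0 and 0, with no adjusted P for 2 of the tests after 15 days. The mean of the 3 time points gave 0 of 34 calls by edgeR (0.00689%) with 5 at an unadjusted P below 0.05 and 0 by DESeq2, which gave no adjusted P for 1. A change of the contrast between time points was called for 0 of 34 by edgeR (0.0138%), with 4 at an unadjusted P below 0.05.

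Cdkn1a in endothelial cells at 48 h was at 399 and 371 CPM in the saline libraries and at 725 and 730 CPM in the cocaine libraries (log2 change 0.99, SE 0.17, adjusted P = 0.0243). The 371 CPM was the lowest value of the 12 libraries, and 725 and 730 CPM were the highest. At maintenance the saline libraries had 394 and 528 CPM and the cocaine libraries 447 and 589, and after 15 days 528 and 611 against 446 and 556, so the groups overlapped at both. The change between time points did not pass the test (adjusted P = 0.732), so a difference between 48 h and the other times was not shown. The share of endothelial cells with a Cdkn1a UMI was 64.9% and 64.4% with saline and 80.4% and 87.7% with cocaine at 48 h. The call was lost without either saline library or without cocaine replicate 2 (log2 change 0.93 to 1.01).

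Summed immediate early genes in these endothelial cells were also higher with cocaine at 48 h (12385 to 13813 CPM, against 10430 to 11091 CPM with saline), and oligodendrocyte markers were 63.3 to 248 CPM against 50.4 to 52.4 CPM. Mural markers overlapped (5732 to 6934 and 6296 to 7159 CPM). Their part in the result was not tested. Sgk1 in the same cells was at 198 and 210 CPM with saline and 259 and 284 CPM with cocaine, which did not pass (0.48, SE 0.18, adjusted P = 0.734).

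In the L2 clusters none of the members was called in 279 tests over 18 clusters by edgeR (0.404% of all tests), with 26 at an unadjusted P below 0.05. DESeq2 was not run on them. The lowest adjusted P was 0.0659, for Cdkn1a in Endo_6 at 48 h (log2 change 1.14, SE 0.25), and its values in Endo_7 and Endo_4 were 1.32 and 0.93.

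The receptors gave no call in the types in which they could be tested. For Nr3c2 these were endothelial cells and excitatory and inhibitory neurons. Nr3c1 was tested in all 8 types at 48 h and after 15 days, but not at maintenance in astrocytes, OPC and NF Oligo. Nr3c1 in excitatory neurons lay between 75.6 and 102 CPM in all 12 libraries. In microglia at maintenance its log2 change was 0.66 (adjusted P = 1). Tsc22d3 in excitatory neurons at maintenance was at 39.3 and 47.2 CPM with saline and 55.1 and 62.4 CPM with cocaine, which did not overlap but did not pass (0.43, SE 0.12, adjusted P = 0.735). In astrocytes at 48 h Cdkn1a had a log2 change of 3.65 (SE 1.26, adjusted P = 0.994) and Hsd11b1 one of −0.49.

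A cocaine library stood apart in oligodendrocytes. Library 8 (48 h) held 60 oligodendrocytes, with Sgk1 at 1253 CPM (284 UMIs in 51 cells, or 85.0%, at most 20 in 1 cell), Cdkn1a at 247 CPM (56 UMIs in 24 cells), Zbtb16 at 154 CPM (35 UMIs) and Fkbp5 at 39.7 CPM (9 UMIs). The other 11 libraries had Sgk1 at 168 to 586 CPM, Cdkn1a at 3.28 to 55.1 CPM, Zbtb16 at 20.3 to 63.8 CPM and Fkbp5 at 0 to 13.3 CPM. Tsc22d3 was 150 CPM (34 UMIs) in library 8 and 37.5 to 138 CPM in the others, so it stood little above them. Of the 8 members with at least 10 UMIs, 5 were highest in library 8, beside 9.44% of all 10987 such genes. Library 8 was singled out by these same values, so the count describes the choice and is no separate support. The second cocaine library of 48 h, library 6, had 281 CPM of Sgk1 and 10.1 CPM of Cdkn1a in 87 cells. None of the 5 members tested in oligodendrocytes (Nr3c1, Sgk1, Tsc22d3, Zbtb16 and Cdkn1a) was called, and Fkbp5 was not tested there. Nr3c1 was 92.7 CPM (21 UMIs) in library 8, within the range of the others (59.0 to 119 CPM).

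**Figure D5:**
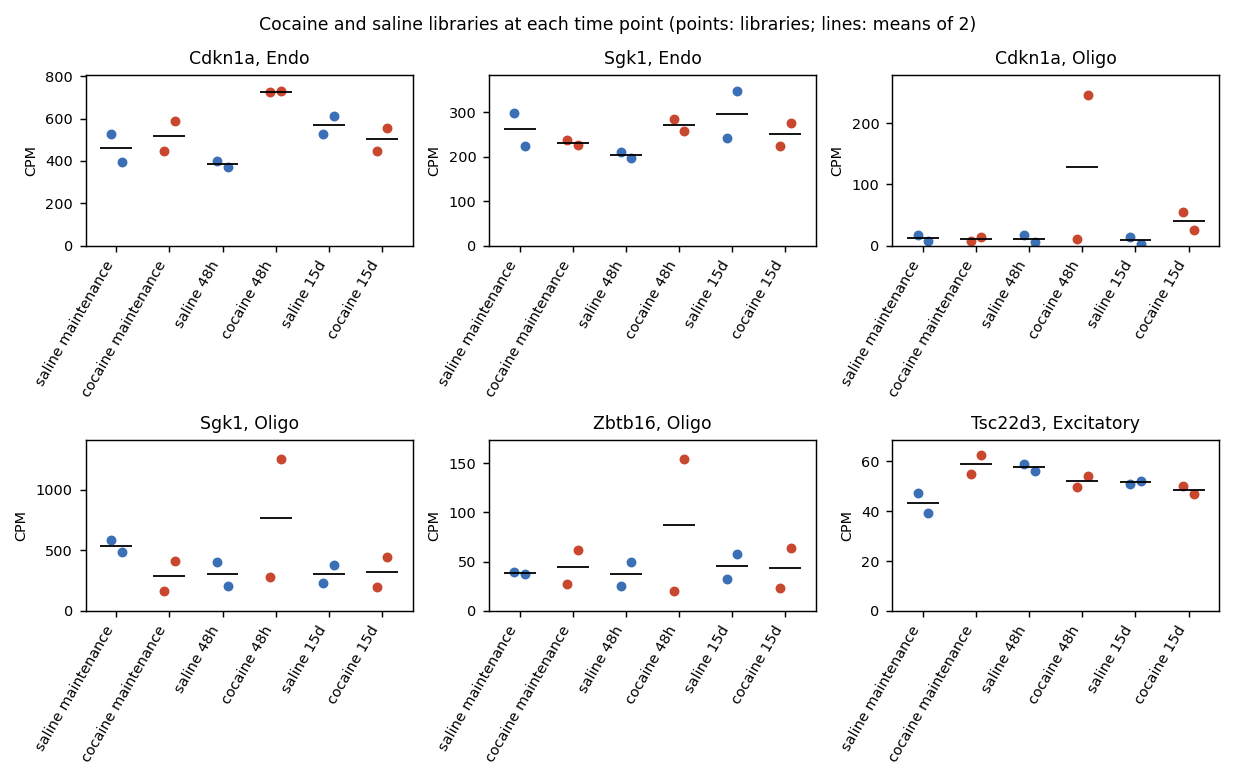
Level (CPM) of Cdkn1a and Sgk1 in endothelial cells, of Cdkn1a, Sgk1 and Zbtb16 in oligodendrocytes and of Tsc22d3 in excitatory neurons in the 6 P60 groups, 1 point per library, with lines at the means of 2 libraries. Cdkn1a in endothelial cells separates at 48 h (371 and 399 against 725 and 730 CPM), and the high oligodendrocyte points at 48 h are library 8.

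None of the other target genes was called by edgeR or DESeq2 at maintenance (54 tests), 48 h (78) or 15 days (78), with 5, 10 and 6 at an unadjusted P below 0.05. DESeq2 gave no adjusted P for 3 of the tests at 48 h and 6 after 15 days, which it therefore could not call. The median log2 change of the target genes at 48 h was highest in endothelial cells, at 0.49 (0.02 over all genes). Oligodendrocytes had 0.46 (0.00) and astrocytes 0.42 (0.03). In oligodendrocytes 5 of the 13 target genes with at least 10 UMIs were highest in library 8, beside 9.44% of all such genes. That library was picked by the members' values, and the count is a description of 1 library. At maintenance the endothelial median was −0.24 (0.02). Also none of the chaperones, coregulators and enzymes was called by either tool (46, 71 and 71 tests, with 6, 8 and 5 at an unadjusted P below 0.05). For 1 of their tests after 15 days DESeq2 gave no adjusted P. Crh in inhibitory neurons was the 1 call of the CRH system in 3 tests, after 15 days (0.840% of all genes in these cells were called), at 14.6 and 7.99 CPM with saline (24 and 8 UMIs) and 42.5 and 35.9 CPM with cocaine (78 and 43 UMIs). The make-up of the inhibitory cells differed too: Inhib_2 was 12.4% of them with cocaine and 6.32% with saline after 15 days, Inhib_4 6.34% and 4.31%, Inhib_11 5.51% and 3.45%, Inhib_5 6.06% and 5.17%, and Inhib_9 11.8% in both, and the part of this in the result was not tested. The libraries did not overlap (log2 change 1.72, SE 0.34, adjusted P = 0.00775). At maintenance Crh was at 29.7 and 27.5 CPM with saline and 53.7 and 50 CPM with cocaine, which did not overlap either but was not called (0.90, adjusted P = 1). At 48 h it was at 17.3 and 9.45 CPM with saline and 0 and 14.4 CPM with cocaine. Inhib_3, with 2.46 CPM of Crh at P60, was 32.2% of inhibitory cells with cocaine at 48 h and 2.98% with saline. The change of Crh between time points was not called (adjusted P = 0.999). DESeq2 did not call the difference after 15 days (1.77, adjusted P = 0.305), and edgeR did not once any 1 of the 4 libraries was left out (1.43 to 2.29).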

How the data were processed

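UMI counts per gene and cell were deposited by the authors, who aligned reads to mm9 and counted them with Cell Ranger and filtered and clustered cells with Seurat 2.1.0, removing cells with many genes as doublets and cells with a high mitochondrial fraction, a deposited column. Cells took their library, class and L2 cluster from the deposited metadata. Here, counts were summed per library and type without 13 mitochondrial and 143 ribosomal protein genes (8.83% to 11.1% of UMIs), wherever a library held 10 or more such cells, and expressed as CPM or tested with edgeR 4.0.16 (quasi-likelihood test, TMM, filterByExpr, Benjamini-Hochberg) in R 4.3.3. Levels and figures used python 3.11.15, numpy 2.4.6, pandas 2.3.3, scipy 1.17.1 and matplotlib 3.10.9. The members, the gene lists and the tests were chosen with earlier results of these data known.

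Named were the 9 members, the called genes of the 3 lists (at most 4 a comparison, by size of change), the 2 genes most like each member among those with at least 10 CPM in a cluster, and markers beside results. Columns of other samples were 0. Simulated counts drawn from the same means, in which 200 genes were shifted by a log2 of 1, gave them back at 75.5% of excitatory, 61.5% of oligodendrocyte, 60.0% of endothelial and 8.5% of microglial genes between ages, and 73.0%, 11.5%, 29.0% and 3.0% for cocaine at 48 h. Alternatives were DESeq2 1.42.0, its size factors, no filter on low counts, no fold cutoff, at least 30 cells, equal cell numbers, all 12 P60 libraries, kept mitochondrial and ribosomal genes and each library left out. Restriction to cells whose class and cluster name the same type, and P21 libraries 2 and 3 summed as 1 sample, were added after seeing the data.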

Additional observations from a re-analysis of the deposited data

Results flagged for a closer look

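Among 38 sets of P60 saline libraries (1 gene in 1 type), 3 held a library far from the rest, where chance gives about 1 in 20. Zbtb16 in excitatory neurons was 34.9 CPM in saline library 2, the next being 49.6 CPM. Fkbp5 in inhibitory neurons was 30.9 CPM in saline library 3, the next being 15.0 CPM, and Tsc22d3 in inhibitory neurons was 210 CPM in saline library 5, the next being 161 CPM.

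Sgk1 changed in opposite directions with age: every P60 saline library lay above every P21 library in oligodendrocytes (log2 change 1.71) and below them in endothelial cells (−0.83) and excitatory neurons (−0.60). The difference between types was not tested.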

How the results depend on the processing

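Of the 12 members' calls between ages, 7 kept direction and call in all alternatives run: Cdkn1a and Sgk1 in endothelial cells, Tsc22d3 in excitatory neurons and oligodendrocytes, and Zbtb16 in excitatory neurons, inhibitory neurons and oligodendrocytes. Lost under some were Hsd11b1 in inhibitory neurons, Cdkn1a in microglia (−0.98, adjusted P = 0.103 without the count filter, and −0.96, adjusted P = 0.0967 with all 12 P60 libraries), Sgk1 in excitatory neurons, Nr3c2 in endothelial cells and, without P21 replicate 1, Sgk1 in oligodendrocytes (1.62). No member reversed. Of the 23 calls of list genes named, 10 were unchanged in all alternatives. Nfkbia in oligodendrocytes reversed to 0.13 (adjusted P = 0.783) in cells whose class and cluster agree, and the cause was not tested. Leaving out 1 library at a time gave 9 to 13 calls between ages by type (12 with all libraries), 33 to 44 in excitatory clusters (39), 0 to 4 for cocaine by type (1) and 0 to 2 for the change between time points (0). The count for cocaine was 0 without either saline library of 48 h and 4 without cocaine replicate 1 of 48 h (library 6), which leaves library 8 alone, assumed to vary like the other groups, and adds Cdkn1a in oligodendrocytes (4.18 at 48 h, 2.01 after 15 days) and in astrocytes at 48 h (4.36). The change between time points gave 1 call with no filter on low counts. Of 27 alternative levels in the highest type, 26 moved by less than the SD, and Tsc22d3 in endothelial cells was 707 CPM with mitochondrial and ribosomal genes kept. No paired analysis was possible because the labels give no number shared between the groups compared. In L2 clusters, cocaine was repeated only without the fold cutoff, and age in excitatory clusters alone and not with equal cell numbers. Depth limits Nr3c2 in endothelial cells, Hsd11b1 in inhibitory neurons and Zbtb16 in oligodendrocytes. They rest on 6 to 14, 10 to 15 and 2 to 12 UMIs per P21 library, in that order.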
